A study of Mus musculus with 12 samples.

Results

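Rab GTPases and SNARE proteins move and fuse the vesicles of a cell, and the RNA counts of 72 of their genes were compared in neutrophils from control spleen and from liver after carbon tetrachloride (CCl4). The members are the protein-coding mouse genes whose symbols begin with Rab and a digit, with Vamp, with Snap and a 2-digit number, or with Stx and a digit. Of 96 such genes in the count table, 72 had more than 1 CPM, the count relative to its library total, in at least 3 of the 12 libraries, out of 48709 genes listed and 12488 that passed the same limit. The 72 comprise 44 Rab GTPases, 7 Rab effectors or regulators, 6 VAMPs, 2 SNAPs and 13 syntaxins.

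A Rab protein bound to GTP sits on the membrane of one kind of vesicle or organelle and recruits the effectors that carry and tether it. SNAREs then pair across the vesicle and its target membrane, VAMPs usually from the vesicle side and syntaxins and SNAPs from the target side, and draw the membranes together. In neutrophils these proteins serve the release of preformed granules and the maturation of phagosomes, the compartments that hold engulfed material.

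The mice were 8- to 10-week-old C57BL/6N males. Control splenic neutrophils of untreated mice were sequenced in 3 samples, 24-hour liver neutrophils in 4 and 72-hour liver neutrophils in 5, the latter groups after a single intraperitoneal injection of CCl4, a liver toxin, at 1 mL/kg in corn oil. No source used here says that each sample is a separate mouse, so the p-values measure the spread between samples, which may be technical. All cells were enriched with anti-Ly6G beads and sorted as Ly6G high, Ly6C intermediate, CD11b+ and CD45+ cells. The control group is spleen and received no oil, so organ, oil and injury cannot be told apart, and both liver groups share the same 3 spleen libraries.

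Gene counts per library ranged from 1267089 to 3017403, of which the members took between 1464 and 4098 counts, or 0.0822% to 0.160%. All 10 neutrophil markers exceeded 1 CPM in at least 3 libraries, with a summed level of 1910 to 7510 CPM in control, 1170 to 2770 at 24 hours and 2120 to 2800 at 72 hours. Ly6g, the marker used for sorting, was counted at only 9.31 to 37.6 CPM in spleen, 2.19 to 25.2 at 24 hours and 1.04 to 11.7 at 72 hours. S100a9 ran from 338 to 3960 CPM in spleen. Camp stood at 8.02 to 175 CPM there, at 0 in every 24-hour library and at most 2.08 at 72 hours. Markers of immature neutrophils were higher in spleen as a sum, at 2610 to 4530 CPM against 884 to 1280 at 24 hours and 971 to 1520 at 72 hours. Among these 9 markers Mki67, a proliferation gene, held most of the liver sums and overlapped between groups, at 673 to 2000 CPM in spleen, 805 to 1260 at 24 hours and 940 to 1480 at 72 hours. Elane was at 0 in every library, and Mpo was at 0 in spleen and at 24 hours and at most 1.39 CPM at 72 hours. Prtn3 overlapped, at 0.463 to 2.57 CPM in spleen, 0 to 10.7 at 24 hours and 0 to 4.83 at 72 hours. Cebpe, at 9.95 to 39.3 CPM in spleen, was lower at 24 hours (1.26 to 8.39) and overlapped at 72 hours (0 to 15.2). Ngp, Chil3, Top2a and Ltf did not overlap between spleen and liver, and Ltf, a specific granule protein made before neutrophils leave the marrow, ranged from 208 to 1710 CPM in spleen, 0.707 to 5.04 at 24 hours and 2.42 to 13.9 at 72 hours. The part of cell maturity in the differences below was not tested. Hepatocyte markers summed to 2.31 to 6.1 CPM in control, 14.8 to 19.8 at 24 hours and 3.24 to 30 at 72 hours, with Ttr at 0 throughout. At 24 hours Apoa2 held 12.7 to 19.5 CPM of this, Alb at most 1.46, and Apoa1, Ahsg and Serpina1a 0. B cell markers summed to between 29.7 and 63.9 CPM, of which Cd79a held 22.6 to 61.1. Endothelial markers summed to between 28.7 and 72.5 CPM, of which Clec4g held 22.7 to 65.2, with Cdh5 and Kdr at 0. Macrophage markers summed to between 11.7 and 43.7 CPM with C1qa and Clec4f at 0. Spleen replicate 3 stood apart from replicates 1 and 2, with a chi-square per degree of freedom over genes of 30.7 and 34 against 2.34 between those, and 72-hour replicates 4 and 5 (5.63 between them) stood apart from replicates 1 to 3 at 16.6 to 31.4. Spleen replicate 3 was closer to 72-hour replicate 4 (13.1) than to its own group. In the 24-hour group replicates 1 and 2 (7.55 between them) lay 16.2 to 25.9 from replicates 3 and 4. The 24-hour replicate 3 was closer to 72-hour replicate 1 (12.1) than to any 24-hour library (16.2 to 19). Rab20 was called at both times without each library in turn. Unaligned reads made up 1.91% and 1.98% of 72-hour replicates 2 and 3 against 49.6% to 50.7% elsewhere, and the share of ambiguous reads in 24-hour replicate 4 was 0.227% against at most 0.0368% in the others.

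Which strand a count stands for is not settled by the table. The kit was stranded, the strand option of the counter is not given in the sources used here, and between 2.71% and 3.18% of uniquely aligned reads were counted on a gene. Exons of 19 of the 72 members overlap an exon of a gene on the opposite strand. A level, also that of the markers above, is the count assigned to the gene's annotation. It was not shown to be RNA of the gene's own strand.

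Levels were compared between members as normalized CPM per kilobase of exon. Rab20, a GTPase of early endosomes and maturing phagosomes, had the highest mean over all libraries (33.0 CPM per kilobase). It was followed by Rab7, the GTPase of late endosomes and lysosomes (19.9), by Snap23, a plasma membrane SNARE of granule exocytosis (17.8), by Rab5c of early endosomes (17.5) and by Rab24, an autophagy-linked Rab (15.5). Rab20 led only in liver. Its level per kilobase was 7.61 ± 1.23 (SD, n = 3) in control splenic neutrophils, rank 15, against 56.2 ± 15 (n = 4) at 24 hours and 29.7 ± 11.8 (n = 5) at 72 hours, rank 1 in both. In spleen the order began with Rab7 at 17.7 ± 9.04, Rab24 at 17.4 ± 2.32 and Snap23 at 16.2 ± 1.14, which do not differ beyond their spread. Over all libraries the next after Rab24 were Vamp8, a granule and endosome SNARE (12.8), Rab6a of the Golgi (12.5) and Rab27a, which docks secretory granules (11.3).

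**Figure D1:**
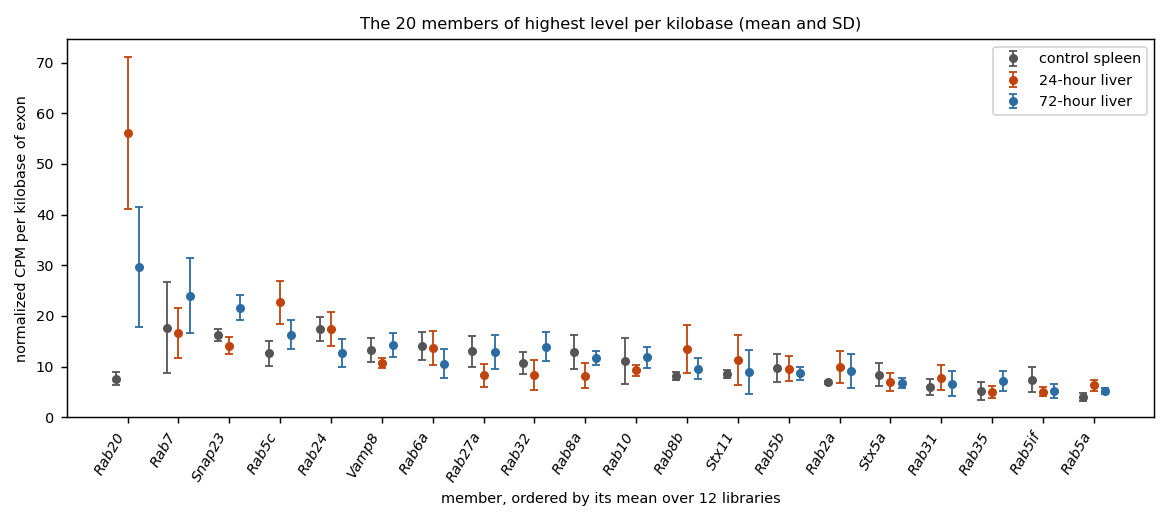
Normalized CPM per kilobase of exon (vertical axis) of the 20 members with the highest mean level, ordered along the horizontal axis; points are group means and whiskers are SD over 3 control, 4 24-hour and 5 72-hour libraries. Rab20 stands at 7.61 in control and 56.2 at 24 hours, the widest gap between group means among the 20.

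The remaining members reached low levels. The mean of a member over all libraries ran from 0.536 to 76.2 CPM with a median of 11.6, and 34 of the 72 lay under 10 CPM. Just inside the limit, Stx8 and Rab4a exceeded 1 CPM in 3 libraries, and the 3 libraries of Rab4a, a GTPase of rapid recycling, were those of the spleen, so it passed through that group alone. Just outside, Rab11fip3 and Rab40b exceeded it in 2 libraries. Of the 24 genes that did not pass, 14 had no count in any library, among them Rab27b, Rab3b, Rab3c, Rab26, Snap25 and Stx1a, which are best known from nerve and gland secretion. Vamp7 was not analysed here.

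At 24 hours the comparison with control spleen asks which trafficking genes differ in neutrophils of the inflamed liver. A gene was called when its adjusted p was below 0.05 and its absolute log2 fold change at least 0.5 in edgeR's quasi-likelihood test. By this rule 5 of 72 members (6.94%) were called, against 9.75% of all genes tested. Rab20, Stx3 and Vamp4 were higher, where 5.35% of all genes were higher, and Rab3d and Rab3gap2 were lower, where 4.4% of all genes were lower. The share of members called lay near the background, so the members as a set did not stand apart. Their log2 fold changes had a median of −0.28 against −0.23 over all genes, and 16 members (22.2%) had an unadjusted p below 0.05, against 26.2% of all genes.

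Rab20 (ENSMUSG00000031504.6, GRCm38 chr8:11453518-11478710, minus strand) was the most changed member with no group near 0. Its control values were 11.1, 12 and 8.68 CPM in replicates 1 to 3. The 24-hour values were 103, 55.2, 67.9 and 86.8 CPM. At 72 hours the values were 46.1, 47.0, 57.9, 13.9 and 41.5 CPM. Every liver library exceeded every spleen library, and 72-hour replicate 4 lay close to the spleen. The log2 fold change was 2.88 ± 0.40 (SE) at 24 hours, a 7.36-fold difference (edgeR adjusted p = 7.86e-05), and 1.97 ± 0.38 at 72 hours, 3.93-fold (edgeR adjusted p = 0.00192). Without 72-hour replicates 2 and 3 the later value was 1.68 ± 0.40 (edgeR adjusted p = 0.0197).

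Stx3, a plasma membrane syntaxin of regulated secretion, rose from 5.1, 3.26 and 4.5 CPM in control to 10.7, 7.8, 13.4 and 24.1 CPM at 24 hours. The groups did not overlap, and 24-hour replicate 4 was the highest library. Its log2 fold change was 1.69 ± 0.47 (edgeR adjusted p = 0.0261), which became 1.30 ± 0.48 (edgeR adjusted p = 0.106) without that replicate, and the call was also lost without spleen replicate 1 or 2, with the replicate number as a block (1.43 ± 0.54, edgeR adjusted p = 0.089) and when libraries were scaled by size alone (1.08 ± 0.47, edgeR adjusted p = 0.0951). The 72-hour values, 5.96, 7.94, 8.67, 8.34 and 11 CPM, gave 0.96 ± 0.46 (edgeR adjusted p = 0.280).

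Vamp4, a SNARE of traffic between endosomes and the trans-Golgi network, rose from 9.28, 10.1 and 6.11 CPM in control to 38.5, 13.8, 19.1 and 13.9 CPM at 24 hours. At 72 hours it stood at 23.9, 17.3, 14.5, 17.4 and 23.4 CPM. Every liver library lay above every spleen library at both times. The log2 fold changes were 1.33 ± 0.41 (edgeR adjusted p = 0.0446) and 1.17 ± 0.40 (edgeR adjusted p = 0.0936), so that only the first passed the test. The 24-hour call was lost in 7 of 12 fits that left out 1 library, with an adjusted p of up to 0.172, those without spleen replicate 1, 2 or 3, 24-hour replicate 1 or 3, or 72-hour replicate 1 or 2. It was also lost with limma-voom (adjusted p = 0.0675), in a fit of the 2 groups alone (edgeR adjusted p = 0.0747) and by library size alone, at 0.73 ± 0.42 (edgeR adjusted p = 0.197).

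Rab3d, a GTPase of secretory granules, fell from 20.9, 22.5 and 11.6 CPM in control to 6.31, 4.2, 0 and 2.92 CPM at 24 hours. The 24-hour libraries rest on few reads, with 10, 7, 0 and 4 counts. Its log2 fold change was −2.40 ± 0.65 (edgeR adjusted p = 0.0220), and −2.33 ± 0.73 (edgeR adjusted p = 0.0559) without 24-hour replicate 4. Without spleen replicate 1 or 2 the call was lost as well. At 72 hours 4 libraries held 2.79 to 6.25 CPM and replicate 5 held 14.9 CPM, within the spleen range, and the log2 fold change of −1.63 ± 0.57 did not pass (edgeR adjusted p = 0.110). It passed without replicate 5 (−2.24 ± 0.57, edgeR adjusted p = 0.0187), with the replicate block (edgeR adjusted p = 0.00792), with limma-voom (adjusted p = 0.0336) and with no filter (edgeR adjusted p = 0.0187).

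Rab3gap2, the noncatalytic subunit of the complex that turns off Rab3 proteins and activates Rab18, fell from 32, 25.4 and 31.8 CPM in control to 11.4, 16.2, 14.9 and 12.4 CPM at 24 hours. Its log2 fold change was −1.11 ± 0.35 (edgeR adjusted p = 0.0447), and the call was lost in 9 of 12 fits that left out 1 library (adjusted p up to 0.138), all but those without 72-hour replicates 2, 3 or 4. It was also lost with upper-quartile scaling, no filter or a fit of the 2 groups alone (edgeR adjusted p = 0.0635, 0.0596 and 0.0522). At 72 hours 4 libraries held 14.2 to 20.1 CPM and replicate 4 held 32.7 CPM, above the highest spleen library. Exons of Iars2 on the opposite strand share 2034 of its 10800 exon bases.

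**Figure D2:**
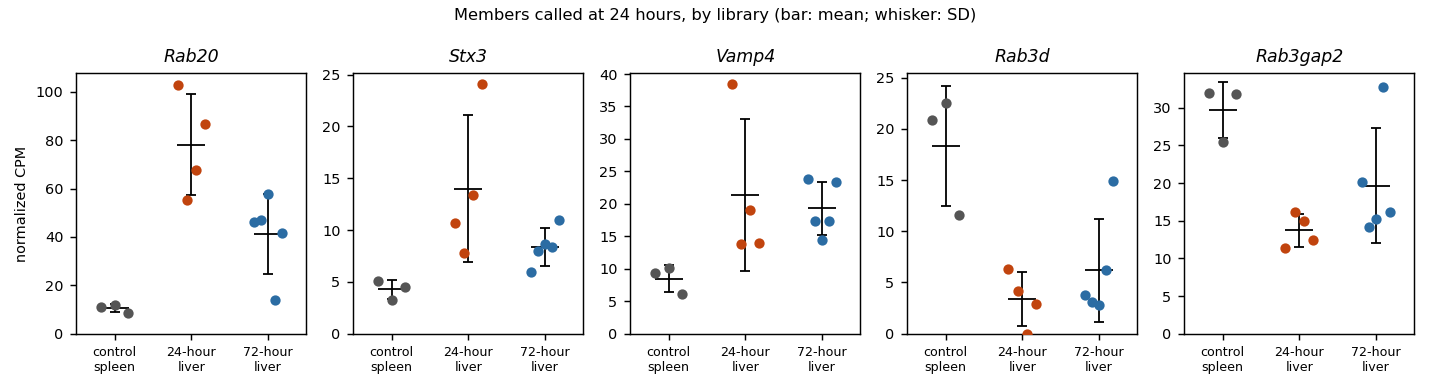
Normalized CPM (vertical axes, each from 0) of the 5 members called at 24 hours, 1 point per library in control spleen, 24-hour liver and 72-hour liver; the bar is the group mean and the whisker the SD. All 24-hour libraries lie above all control libraries for Rab20, Stx3 and Vamp4 and below them for Rab3d and Rab3gap2.

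Promoter windows of the called member with the largest rise and of the one with the largest fall are shown here for reference, from 250 bases before to 50 bases after the RefSeq start (GRCm38.p6, both minus strand, 5′ to 3′). Rab20 lies at chr8:11478591-11478890 and Rab3d at chr9:21918134-21918433. Capitals mark the E-box CACGTG and the GC box GGGCGG, or its reverse complement.
Rab20: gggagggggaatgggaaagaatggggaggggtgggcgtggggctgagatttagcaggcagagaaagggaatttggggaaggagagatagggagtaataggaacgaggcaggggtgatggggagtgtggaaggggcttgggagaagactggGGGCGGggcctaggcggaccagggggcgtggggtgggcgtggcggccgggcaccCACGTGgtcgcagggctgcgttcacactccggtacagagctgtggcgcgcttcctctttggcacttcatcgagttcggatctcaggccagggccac
Rab3d: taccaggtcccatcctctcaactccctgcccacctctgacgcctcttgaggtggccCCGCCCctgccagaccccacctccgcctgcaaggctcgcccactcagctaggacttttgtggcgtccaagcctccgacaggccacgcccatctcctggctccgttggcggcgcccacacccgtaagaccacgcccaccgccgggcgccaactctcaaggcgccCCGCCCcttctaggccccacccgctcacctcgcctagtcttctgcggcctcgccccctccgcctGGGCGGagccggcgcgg

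The table of RefSeq promoters held a window for 61 of the 72 members. Short motifs, 6 in all, were searched on both strands, namely AP-1 (TGANTCA), NF-κB (GGGNNTTCC), C/EBP (TTNNGCAA), PU.1 (GAGGAAGT), the E-box and the GC box, of which the last pair was added after the windows had been read. None of the first 4 occurred in a window of the 5 called members. The E-box was found in windows of Rab20, 46 bases before the start, and of Rab3gap2 and Vamp4. It occurred in 9 of 61 members (14.8%) and in 8.09% of the 27025 genes with a window. A GC box was in 46 of 61 members (75.4%) and 38.2% of all genes, and Stx3 held no match to any of the motifs. These matches describe letters in the window and were not tied to the counts. The windows of Rab20, Rab3d and Rab3gap2 were 64.3%, 71.0% and 69.0% G or C, and those of Vamp4 59.7% and 76.0%. That of Stx3 was 44.0%, and the median over all windows was 52.7%. The 27025 genes were not restricted to those that passed the limit on CPM, as the members were. The part of that limit and of base content in the motif shares was not tested.

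Secretory Rabs are the GTPases nearest to granule release. Of 10, Rab3d alone was called at 24 hours, and the median log2 fold change was −0.40. Rab27a measured 59.4, 55.1 and 37.0 CPM in control and 38.5, 40.2, 22.6 and 27.0 CPM at 24 hours. Its groups overlapped and its log2 fold change of −0.65 ± 0.31 did not pass (edgeR adjusted p = 0.183). At 72 hours it stood at −0.03 ± 0.29. Rab8a and Rab8b, a pair of related exocytic GTPases, had values of opposite sign, −0.66 ± 0.28 (edgeR adjusted p = 0.144) and 0.73 ± 0.30 (edgeR adjusted p = 0.123), neither of which passed. Rab10, which drives exocytic carriers, gave −0.26 ± 0.30, and the granule GTPases Rab37 and Rab3a gave 0.72 ± 0.53 and 0.60 ± 0.62.

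Early endosome and phagosome Rabs were summed at 225, 211 and 204 CPM in control and at 365, 265, 267 and 279 CPM at 24 hours. Rab20 made up most of this difference in level. Of the other 7 members none was called at either time. Rab5c and Rab5a, which govern fusion of early endosomes, had higher values at 24 hours without overlap, with log2 fold changes of 0.85 ± 0.29 (edgeR adjusted p = 0.0622) and 0.66 ± 0.30 (edgeR adjusted p = 0.162). Rab5c passed with upper-quartile scaling, DESeq2, the filterByExpr filter and the fit of genes without an opposite-strand exon (adjusted p = 0.0468, 0.0171, 0.042 and 0.0444). Rab5b of the same subfamily gave −0.01 ± 0.30. Rab31, a Rab of trans-Golgi to endosome traffic, gave 0.39 ± 0.36 (−0.20 when scaled by library size alone), and Rab14, found on phagosomes and endosomes, gave −0.53 ± 0.30.

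Recycling Rabs return membrane to the cell surface, and none of 5 was called. Rab11a gave −1.20 ± 0.61 at 24 hours (edgeR adjusted p = 0.217), from a mean of 6.66 ± 3.66 CPM (SD, n = 3) to 2.85 ± 1.09 CPM (n = 4). Rab4a held 2, 8 and 3 counts in spleen, 0 or 1 in each 24-hour library and 0 or 1 in each 72-hour library, too few for a fold change. None of 9 Rabs of late endosomes, lysosomes and autophagy was called at 24 hours. Rab7 was at 64.9, 53.6 and 19.6 CPM in control and 50.5, 34.8, 30.4 and 57.6 CPM at 24 hours, which gave −0.08 ± 0.37 on the log2 scale. Rab24 gave 0.00 ± 0.29. Rab7b, a late endosomal Rab, held 0, 1 and 0 counts in spleen and 2, 10, 0 and 4 at 24 hours, at least 2.22-fold higher in mean than the limit of 3 counts per spleen library, and did not pass (edgeR adjusted p = 0.0951).

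None of 10 Rabs of the endoplasmic reticulum and Golgi was called. Rab1a, which carries cargo from the endoplasmic reticulum, held means of 18.5 ± 2.55, 18.4 ± 5.21 and 18.3 ± 2.65 CPM in the control, 24-hour and 72-hour groups. Rab2b, a Golgi GTPase, stood at 13.9, 18.5 and 12.9 CPM in control and 39.7, 21.6, 26.9 and 20.4 CPM at 24 hours. The groups did not overlap, and its log2 fold change was 0.85 ± 0.37 (edgeR adjusted p = 0.154). Among 7 effectors and regulators, Rab3gap2 alone was called, and Rab11fip4, an effector of Rab11, gave −1.05 ± 0.37 (edgeR adjusted p = 0.0748) from 26.9, 31.2 and 51.1 CPM in control to 16.4, 21.6, 23.3 and 8.75 CPM.

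**Figure D3:**
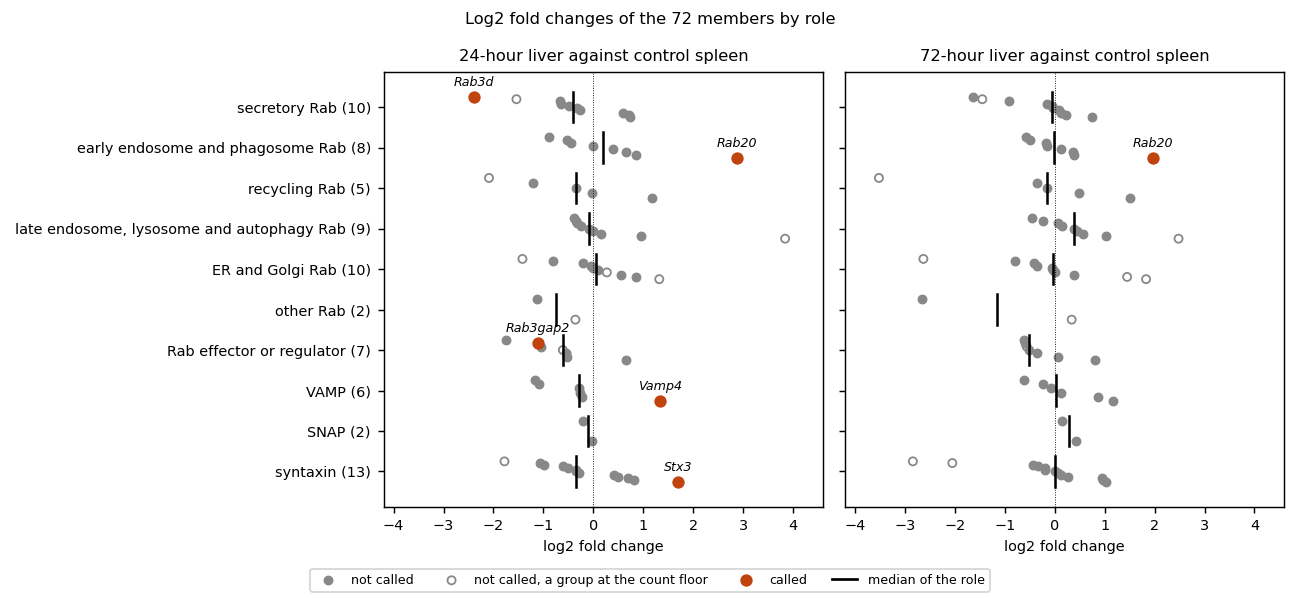
Log2 fold changes (horizontal axis) of the 72 members against control spleen at 24 hours (left) and 72 hours (right), by role (number of members in parentheses); filled orange points were called, open points have a group with at most 3 counts in every library, and the black line is the median of the role. Rab20 is called in both panels, and Stx3, Vamp4, Rab3d and Rab3gap2 in the left one only.

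VAMPs had values of both signs at 24 hours. Vamp4 rose, and the other 5 of 6 had values below 0 that did not pass. Vamp3, a SNARE of recycling endosomes, measured 23.2, 18.1 and 18.7 CPM in control and 15.8, 7.8, 5.66 and 5.84 CPM at 24 hours (log2 fold change −1.17 ± 0.42, edgeR adjusted p = 0.0791). Vamp1, a SNARE of secretory vesicles, measured 19.9, 16.3 and 20.6 CPM in control and 8.83, 6.6, 9.19 and 10.9 CPM at 24 hours (−1.09 ± 0.41, edgeR adjusted p = 0.0921). Both were lower in every 24-hour library than in any spleen library, and Vamp3 was called in the fit without 24-hour replicate 1. Vamp8 and Vamp2, SNAREs of granule release, gave −0.29 ± 0.29 and −0.23 ± 0.40.

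Snap23, the higher of the SNAP genes, held 71.4, 73.2 and 64.0 CPM in control and 69.4, 56.4, 53.0 and 62.7 CPM at 24 hours (log2 fold change −0.20 ± 0.23). Of 13 syntaxins Stx3 alone was called. Stx11, required for granule fusion in cytotoxic lymphocytes, ranged from 31.8 to 38.5 CPM in control and from 24.0 to 74.4 CPM at 24 hours (0.42 ± 0.37, and −0.16 when scaled by library size alone). Stx4a at the plasma membrane gave −0.35 ± 0.48, Stx7 of late endosomes −0.50 ± 0.41 and Stx6 of the trans-Golgi network 0.70 ± 0.67. These intervals leave room for differences in either direction.

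**Figure D4:**
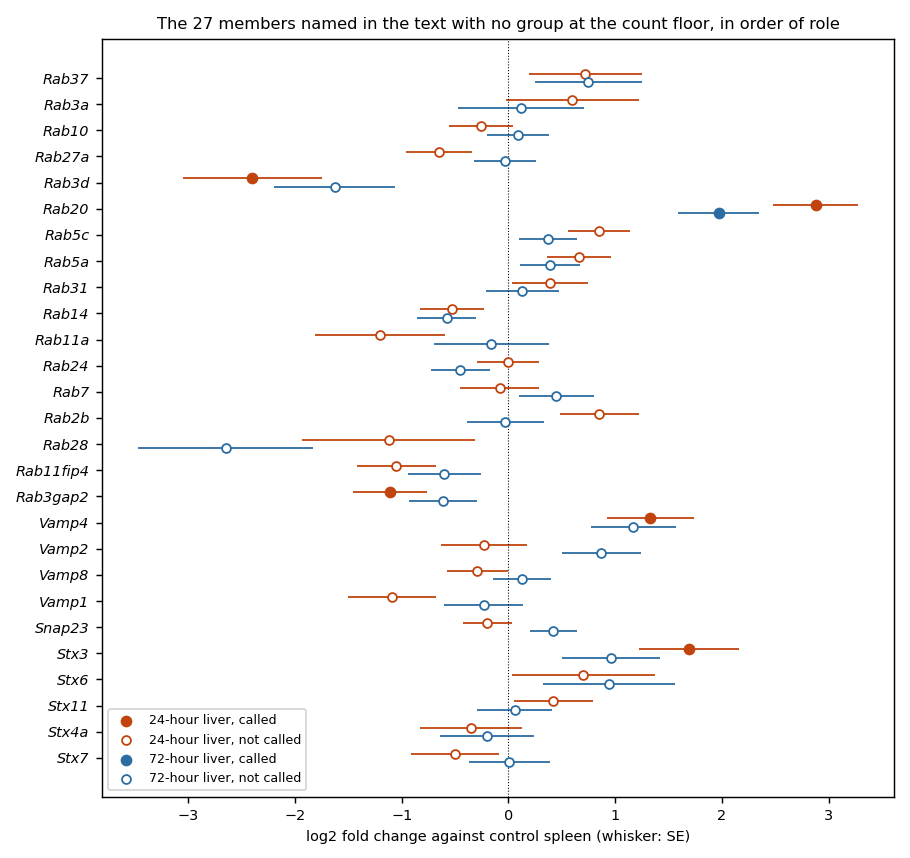
Log2 fold change against control spleen (horizontal axis, whisker SE) of 27 members at 24 hours (orange) and 72 hours (blue), in order of role; filled points were called. The values of Rab20, 2.88 and 1.97, are the farthest above 0.

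At 72 hours the comparison with the same spleens asks which differences are seen in the repair phase. Rab20 was the only member called, 1 of 72 (1.39%) against 5.33% of all genes tested. Higher calls made up 2.63% and lower calls 2.71% of all genes. The members' median was −0.01 against −0.02 over all genes, and 11 members (15.3%) had an unadjusted p below 0.05, against 17.1% of all genes. Rab28, a Rab tied to photoreceptor upkeep, held 8, 26 and 9 counts in spleen and 0, 2, 4, 1 and 2 at 72 hours, and its log2 fold change of −2.65 ± 0.82 did not pass (edgeR adjusted p = 0.0623), whereas it did with DESeq2 (adjusted p = 0.0352) and with no filter (edgeR adjusted p = 0.0305), and also in a fit of the 2 groups alone, by library size alone and without spleen replicate 3 or 24-hour replicate 3. Vamp2 measured 9.74, 7.25 and 16.1 CPM in control and 14.6, 19.0, 27.2, 13.9 and 26.0 CPM at 72 hours (0.87 ± 0.37, edgeR adjusted p = 0.220). Rab43 of the Golgi and Stx18 of the endoplasmic reticulum were at or below 3 counts in every 72-hour library, with spleen means at least 2.94-fold and 3.42-fold above that limit, and neither passed (edgeR adjusted p = 0.125 and 0.128). Both were called lower with limma-voom, and Stx18 also with no filter. At 24 hours Stx18 was called lower with limma-voom and without 24-hour replicate 1, but not in the main fit.

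Late and early liver neutrophils were also set against each other, without a spleen library in the contrast. None of the 72 members was called by edgeR, against 4.49% of all genes (1.65% higher, 2.84% lower at 72 hours). Of the members 8 (11.1%) had an unadjusted p below 0.05, against 20.9% of all genes. DESeq2 called 3 members (4.17%), Snap23, Vamp2 and Rab20, against 7.62% of all genes, and limma-voom called 0. Snap23 stood at 88.4, 84.6, 88.2, 92.4 and 111 CPM at 72 hours, above all 24-hour libraries, and differed by 0.62 ± 0.21 on the log2 scale (edgeR adjusted p = 0.0870). Vamp2 was likewise above all 24-hour libraries, which held 8.2, 10.8, 8.49 and 10.2 CPM (1.10 ± 0.36, edgeR adjusted p = 0.0780). Stx17, the syntaxin of autophagosomes, gave 1.11 ± 0.40 (edgeR adjusted p = 0.109). Rab20 was lower at 72 hours by value, −0.91 ± 0.31, with overlapping groups (edgeR adjusted p = 0.0888), and Rab2b gave −0.87 ± 0.33 (edgeR adjusted p = 0.125). That difference in Rab20 passed the test in DESeq2 (−0.94 ± 0.33, adjusted p = 0.0484) and with no filter on low counts (−0.90 ± 0.29, edgeR adjusted p = 0.0408).

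The summed level of all 72 members was 1270 ± 45.9 CPM (SD, n = 3) in control, 1210 ± 140 (n = 4) at 24 hours and 1290 ± 130 (n = 5) at 72 hours, ranges that overlap. Before TMM scaling the members' share of gene counts was lower at 24 hours, at 0.0822% to 0.108%, against 0.141% to 0.160% in control and 0.123% to 0.155% at 72 hours. TMM factors were 0.74 to 0.86 at 24 hours, 1.17 to 1.24 in control and 1.03 to 1.14 at 72 hours. With library size alone the median over all genes at 24 hours moved from −0.23 to −0.81 and that over members from −0.28 to −0.87, and 20 members (27.8%) were called, 1 higher (Rab20) and 19 lower, against 23.6% of all genes. The median of the members relative to all genes was thus −0.05 and −0.06 under the respective scalings. In bulk samples, fewer cells of a type and less RNA per cell cannot be told apart.

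Genes on the opposite strand were often counted at far higher levels than the member they overlap. E230013L22Rik shares 356 of the 1392 exon bases of Rab20 (25.6%) and was counted at 83.8, 98.8 and 74.2 CPM in control. At 24 hours it was counted at 980, 806, 908 and 1030 CPM, and at 72 hours at 356, 463, 554, 128 and 231 CPM. Its log2 fold changes were 3.44 ± 0.37 (edgeR adjusted p = 3.61e-06) and 2.02 ± 0.34 (edgeR adjusted p = 0.000592), beside 2.88 and 1.97 for Rab20. In 72-hour replicate 4 both genes had their lowest liver value. Which of the pair the RNA came from cannot be told apart.

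Gm5577, opposite Rab7, was counted at 1760 to 2470 CPM in control, 4840 to 6720 at 24 hours and 2290 to 3280 at 72 hours. At 24 hours its count rose by 1.49 ± 0.21 on the log2 scale (edgeR adjusted p = 8.11e-05), beside −0.08 ± 0.37 for the count assigned to Rab7. Rab10os, opposite Rab10, rose by 0.95 ± 0.22 (edgeR adjusted p = 0.00703), from 225 to 333 CPM in control to 536 to 601 CPM, beside −0.26 ± 0.30 for Rab10. Gm17251, opposite the recycling GTPase Rab11b, rose by 2.03 ± 0.53 (edgeR adjusted p = 0.0169) beside −0.35 ± 0.33 for Rab11b. Mir6340, opposite the endosomal GTPase Rab22a, rose by 0.80 ± 0.24 (edgeR adjusted p = 0.0390) beside −0.89 ± 0.53 for Rab22a. In these pairs too, which gene the RNA came from cannot be told apart. At 24 hours 2 of the 19 members with an opposite-strand exon were called (10.5%) and 3 of the 53 without one (5.66%), against 9.75% of all genes. Stx3, Vamp4 and Rab3d have no opposite-strand exon, and their calls held in a fit of genes without one (edgeR adjusted p = 0.0176, 0.0257 and 0.0177), in which 4 of 53 members (7.55%) and 7.37% of all genes were called. The unknown strand option bears on every gene, so this fit cannot show that their counts are RNA of their own strand.

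**Figure D5:**
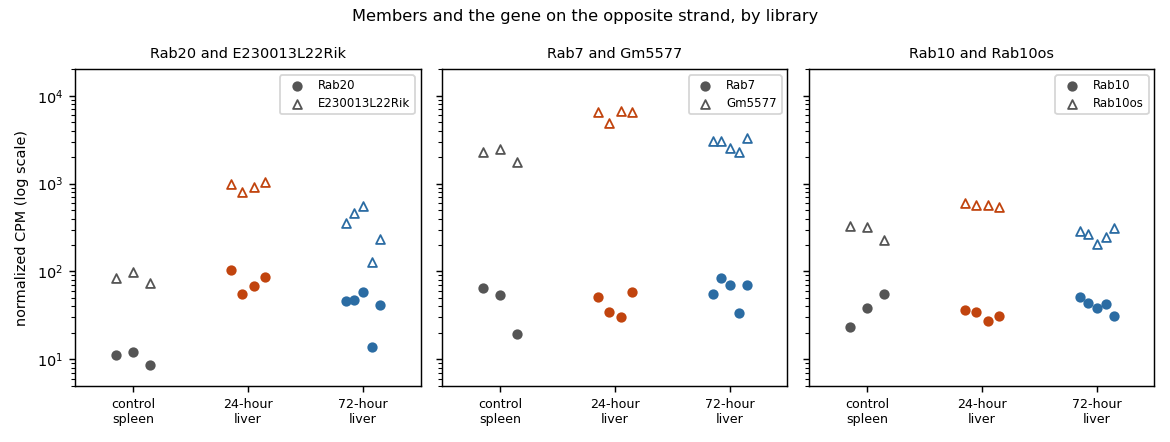
Normalized CPM (vertical axis, log scale) of Rab20, Rab7 and Rab10 (filled circles) and of the gene on the opposite strand of each (open triangles), 1 point per library in control spleen, 24-hour liver and 72-hour liver. E230013L22Rik follows the order of Rab20 across groups at 74.2 to 1030 CPM, whereas Gm5577 and Rab10os are higher at 24 hours and Rab7 and Rab10 overlap between groups.

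Other genes of the fusion and Rab machinery were read from a list of 76, all of which are in the table, and 59 were tested. At 24 hours 7 of 59 (11.9%) were called, 3 higher and 4 lower, against 9.75% of all genes, with a median log2 fold change of −0.53 against −0.23 over all genes. Higher were Sec22c, a SNARE-like protein of the early secretory path (344 to 609 CPM in control, 658 to 1220 at 24 hours, log2 fold change 1.04 ± 0.26), Vti1b, an endosomal SNARE (885 to 972 against 1940 to 2310 CPM, 1.19 ± 0.22), and Tbc1d10b, a Rab GTPase-activating protein (48.2 to 60.2 against 90.6 to 107 CPM, 0.88 ± 0.25). Their edgeR adjusted p values were 0.0123, 0.00113 and 0.0284. Sec22c was lost in 2 of 12 fits that left out 1 library and Tbc1d10b in 5. Both were also lost by library size alone, and Tbc1d10b with no filter and at an absolute log2 fold limit of 1. Of the exon bases of Vti1b 285 lie opposite an exon of another gene, so its counts share the limit given for Rab20. The strand counted is not settled for Sec22c and Tbc1d10b either.

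Lower at 24 hours were the exocyst subunits Exoc2 and Exoc3, which tether vesicles at the plasma membrane (log2 fold changes −2.09 ± 0.64 and −2.14 ± 0.64, edgeR adjusted p = 0.0415 and 0.0364). Exoc2 went from 7.07 to 8.81 CPM in control to 0.707 to 3.15 CPM, and Exoc3 from 6.43 to 15.6 CPM to 0.707 to 4.8 CPM. In the 24-hour libraries 3 counts are 1.8 to 2.19 CPM, so both rest on few reads there. Unc13d, which primes granules for fusion, went from 27.0 to 32 CPM in control to 7.2 to 17.5 CPM (−1.09 ± 0.34, edgeR adjusted p = 0.0457). Evi5, a Rab GTPase-activating protein, was at 4.82 to 6.89 CPM in control and at or below 3 counts in every 24-hour library, at least 2.96-fold lower (edgeR adjusted p = 0.00611), and 378 of its exon bases lie opposite another gene's exon. Without 1 library Exoc2 was lost in 6 of 12 fits, Exoc3 in 5 and Unc13d in 10. Exoc2, Exoc3 and Unc13d were also lost in a fit of 2 groups, and Exoc2 and Exoc3 with the replicate block. Exoc2 and Unc13d were lost among genes without an opposite-strand exon and without 72-hour replicates 2 and 3. Limma-voom lost Exoc2, and upper-quartile scaling and no filter lost Unc13d. At 72 hours 1 of 59 (1.69%) was called, against 5.33% of all genes. It was Vps39 of the complex that tethers late endosomes, from 1.39 to 2.17 CPM in control to 2.78 to 10.4 CPM (2.11 ± 0.58, edgeR adjusted p = 0.0337). Its call was lost without any 1 of the spleen libraries or of 72-hour replicates 1, 2 and 3 (adjusted p up to 0.152) and by library size alone. None was called between the liver groups by edgeR, where 8 had an unadjusted p below 0.05 and DESeq2 called 2 and limma-voom 1.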

How the data were processed

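Neutrophil RNA of 12 samples was sequenced as stranded paired-end libraries. The authors aligned reads to GRCm38 (STAR 2.7.9a in the submitters' processing notes) and deposited whole-number counts per gene from HTSeq-count, without normalization, in 1 table of 48709 genes. Its 5 summary rows of unassigned reads entered neither totals nor tests. The RNA integrity limit is 7 in the paper and 8 in the labels.

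Counts were analysed in R 4.3.3. The 12488 genes above 1 CPM in at least 3 libraries were scaled by TMM and fitted over all libraries at once with edgeR 4.0.16 (quasi-likelihood, Benjamini-Hochberg over every gene tested). A level of 1 CPM is 1 to 3 counts here. A group with at most 3 counts in each library was held to be at the floor, and bounds use 3 counts per library. GENCODE M21 matched 48349 identifiers without their version.

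Members and gene lists were chosen with earlier results of these data known. Named members are those called, those whose groups do not overlap at p below 0.01, the 2 smallest p in each direction and comparison, the 5 of highest level per kilobase and a list known for granule or phagosome traffic. Rab8a, Rab8b, Rab5b, Rab1a, Rab6a, Rab7b, Rab11b, Rab22a, Rab43, Vamp3, Stx17 and Stx18 were added after their values were seen. Alternatives were DESeq2 size factors, upper-quartile scaling, limma-voom (limma 3.58.1), the Wald test of DESeq2 1.42.0, other filters and fold limits, fits of 2 groups, a replicate block, genes without an opposite-strand exon, leaving out libraries and, added after seeing the data, library size alone. The tests were checked on simulated counts.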

Additional observations from a re-analysis of the deposited data

Results flagged for a closer look

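Of 66 groups of library values 4 held a library far from the others, where chance gives about 1 in 20. Rab3d stood at 14.9 CPM in 72-hour replicate 5, with the next library at 6.25 CPM. Stx6 was lowest in the same library, at 1.95 CPM against 4.34 CPM for the next. Rab4a was at 0.31 CPM in 72-hour replicate 3, which is 1 count, and at 0 in the other 72-hour libraries. The share of ambiguous reads was 0.227% in 24-hour replicate 4 and at most 0.0255% in the other 24-hour libraries.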

How the results depend on the processing

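Rab20 remained called at 24 and 72 hours in every alternative in which it was tested and in all 12 fits without 1 library; in the fit without genes that have an opposite-strand exon it was not tested. Of the other calls at 24 hours, Rab3d was lost in 3 of 12 such fits, Stx3 in 3, Vamp4 in 7 and Rab3gap2 in 9. The 24-hour count of members called, 5, became 3 in a fit of 2 groups and 20 by library size alone. It was 6 with DESeq2 and filterByExpr, and 4 with no filter, with the replicate block and without opposite-strand exons. Without 1 library it was 1 to 5, with 1 (Rab20) without spleen replicate 1 or 2. The 72-hour count, 1, became 4 with limma-voom, 4 with no filter, 2 with DESeq2, with 2 groups, with the replicate block and by library size alone, 0 without genes that have an opposite-strand exon, and 1 to 2 without 1 library. Between the liver groups, 0 became 3 with DESeq2, 1 with no filter, 1 with filterByExpr and 9 by library size alone. For the other fusion and Rab regulator genes, 7 at 24 hours became 4 with 2 groups, 3 without opposite-strand exons and 16 by library size alone. That count was 9 with DESeq2 and filterByExpr, and 6 with upper-quartile scaling and a log2 fold limit of 1. It was 5 with no filter, with the block and without 72-hour replicates 2 and 3, and 2 to 7 without 1 library. At 72 hours 1 became 3 with limma-voom and filterByExpr, 2 with DESeq2 and the block, 0 without 72-hour replicates 2 and 3, 0 by library size alone and 0 to 2 without 1 library. Between the liver groups 0 became 1 with limma-voom, 2 with DESeq2, 1 with the block, 4 by library size alone and 0 to 1 without 1 library. The causes were not tested.

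Of 10 same-number pairs 1 had a correlation of deviations over 0.1 (range −0.116 to 0.13), which cannot settle whether the replicate numbers pair the libraries. Same-number pairs of spleen and 24-hour libraries gave 0.0947, 0.0941 and 0.13, while spleen replicate 3 with 72-hour replicate 3 gave −0.116. Libraries of different number reached 0.161 (spleen replicate 3 with 72-hour replicate 4). With the replicate block 4 members were called at 24 hours, all but Stx3. The log2 fold change changed sign in 88 of 2064 single-gene values under alternatives, and none of these passed the test in the alternative. The 2064 include the values at other fold limits, which reuse the main fit and so could not change sign. At 24 hours against control the sign turned by library size alone for Rab31 (−0.20), Rab24 (−0.60) and Stx11 (−0.16), with the block for Rab7 (0.04) and Rab24 (−0.09), with limma-voom for Rab7 (0.07), and for Rab24 with filterByExpr (−0.02) and no filter (−0.01). At 72 hours against control it turned for Stx7 with 2 groups (−0.02), DESeq2 (−0.01), DESeq2 size factors (0.00), filterByExpr (−0.01), no filter (−0.01), no opposite-strand exon (−0.03), library size alone (−0.14) and the block (−0.11). It also turned by library size alone for Vamp8 (−0.04), Rab31 (−0.02), Rab10 (−0.05), Rab3a (−0.03) and Stx11 (−0.11), with limma-voom for Rab11a (0.05), Rab3a (−0.09) and Stx11 (−0.08), with the block for Rab2b (0.05), Rab31 (−0.13), Rab3a (−0.18) and Stx11 (−0.34), and without 72-hour replicates 2 and 3 for Rab27a (0.18). At 72 against 24 hours it turned by library size alone for Vamp4 (0.29), Rab14 (0.39), Rab5a (0.16), Rab31 (0.18) and Stx11 (0.05), without 72-hour replicates 2 and 3 for Vamp4 (0.01), Rab14 (0.08), Rab31 (0.01) and Stx4a (−0.19), and for Rab37 with DESeq2 (0.00), DESeq2 size factors (0.00), no opposite-strand exon (−0.16) and upper-quartile scaling (−0.05). Without 1 library, ranges that crossed 0 were −0.46 to 0.16 for Vamp2, −0.45 to 0.24 for Rab7, −0.11 to 0.11 for Rab24 and −0.52 to 0.09 for Rab10 at 24 hours. At 72 hours they were −0.13 to 0.15 for Rab2b, −0.01 to 0.22 for Vamp8, −0.09 to 0.32 for Rab31, −0.52 to 0.27 for Rab11a, −0.22 to 0.10 for Rab27a, −0.17 to 0.43 for Rab10, −0.10 to 0.53 for Rab3a, −0.28 to 0.18 for Stx11, −0.13 to 0.28 for Stx7 and −0.39 to 0.01 for Stx4a. Between the liver groups they were −0.32 to 0.30 for Vamp4, −0.17 to 0.08 for Rab14, −0.20 to 0.38 for Rab37 and −0.04 to 0.54 for Stx4a. A further 1915 values, those at other fold limits among them, kept their direction and their side of the threshold, 31 came to pass it and 30 no longer did. With genes at the floor set to their bound, the members' median log2 fold change was −0.21 at 24 hours, 0.0 at 72 hours and 0.13 between the liver groups. Genes near 1 CPM rest on 1 to 3 counts, so that small differences in them were not detectable at this depth.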
